A study of Mus musculus with 13 samples.

Results

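Hox genes encode homeodomain transcription factors that lie in 4 clusters, HoxA to HoxD, and are numbered by paralog group. Along a cluster, the order of the genes follows the order in which they are used from head to tail in the embryo, so that low numbers mark anterior and high numbers posterior levels, and adult epithelia can keep part of that code. The members were taken by symbol, as every gene of the platform annotation that is named Hoxa, Hoxb, Hoxc or Hoxd with a number, each read from the 1 probe set that names only that gene and has the highest mean. This gave 34 genes of 17097 measured: 9 of HoxA, 10 of HoxB, 6 of HoxC and 9 of HoxD. Hox genes that the annotation used here does not name were not analysed. All 34 members are accounted for below.

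The arrays hold RNA of C57BL/6 mice with the Lgr5-EGFP-ires-CreERT2 allele, in which GFP and an inducible Cre are made under the promoter of Lgr5, a receptor that marks stem cells of the small intestine and the hair follicle. All 4 groups carry it. There were 3 arrays of sorted GFP-dim hair follicle cells (the hair bulge in the study), 4 of GFP_High intestinal cells (the stem cells), 3 of GFP_Low intestinal cells (their near descendants) and 3 of Villus, the differentiated epithelium, with 3 mice pooled per sort by the series text. Age and sex are not given in the sources used here, and neither is the gate, if any, of the Villus cells. Replicates are biological according to the methods.

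Labels and markers were checked first. In 3 intestinal arrays (GFP_High 2, GFP_Low 2 and GFP_Low 3) a label field for the Lgr5 level is opposite to the title, and the titles were used. These 3 are the arrays with conflicting labels below. The field also reads high in the 3 hair follicle arrays, titled GFP-dim, and in the 3 Villus arrays, whose titles name no level. Lgr5 had intensities of 533 to 793 in the 4 GFP_High arrays, 12.6 to 66.1 in GFP_Low and 4.8 to 6.8 in Villus, in the order that the titles give. In the GFP-dim hair follicle arrays Lgr5 had 479, 540 and 687. Hair follicle arrays had all 12 keratinocyte and follicle markers measured above background (Krt14, a basal keratin, at 3947 to 7179, against 4.4 to 6.4 in the intestinal arrays), while of 15 intestinal epithelium markers 7 were above it (summed intensity 3913 to 4567, against 24904 to 72490 in the intestinal arrays). The 7 include epithelial genes such as Epcam (1476 to 2114) and Krt8 (68.5 to 112), and Lgals4 (35.5 to 53.4), while Vil1, Krt20, Gpa33, Olfm4, Alpi, Apoa1, Fabp1 and Fabp2 were not above it. The hair follicle arrays also had 8 of 10 melanocyte markers above background (summed intensity 769 to 987, against 73.9 to 131 in the intestinal arrays), with Ednrb and Oca2 not above it. Against GFP_High, 4 of the 10 were called higher and 1 lower, where 19.4% and 29.1% of all genes were. Mitf had 632, 299 and 587 in hair follicle arrays 1, 2 and 3. Tyr (5.7, 16.1 and 4.9) and Mlana (5.5, 23.4 and 4.8) passed through array 2. Sox10 had 9.8 to 15.7, against 11.8 to 12.6 in GFP_High, and Kit had 6.7 to 11.9, against 49 to 59.1 in GFP_Low. Of 12 fibroblast and dermal papilla markers 4 were above background in hair follicle arrays (Col1a1, Col3a1, Dcn and Thy1). The list summed to 103 to 148 there, against 60.0 to 113 in the intestinal arrays, and Col1a2, Pdgfra, Twist1 and Corin were not above background. Of 12 leukocyte markers 2 were above background in hair follicle arrays, 5 in GFP_High, 4 in GFP_Low and 12 in Villus. Their summed intensity was 65.2 to 137.5 in hair follicle arrays, 2216 to 5130.5 in GFP_High, 7998.5 to 13067 in GFP_Low and 3278 to 4242 in Villus. Of these, Lyz2 had 2138 to 4503 in GFP_High and 7589 to 12665 in GFP_Low. The part of melanocytes, fibroblasts and leukocytes in the results on hair follicle and Villus arrays was not tested. In bulk RNA, fewer cells of a type and less RNA per cell cannot be told apart.

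As the files used here hold no detection calls, genes for smell, pheromone and taste receptors, a class with few transcripts in most tissues, served as background: the 95th percentile of 86 such probe sets was an intensity of 7.55 (log2 2.92). It is called the receptor level here. A group counts as above it when its mean log2 is. If just the higher group is, the difference is written as at least so many fold, computed with the receptor level in place of any array of the lower group that lies under it, and if neither is, only the log2 difference is stated. Levels of different probe sets depend on their probes and are not compared with each other.

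Of the 34 members, 17 were above the receptor level in hair follicle arrays, 4 in GFP_High, 4 in GFP_Low and 6 in Villus, while 60.2% to 61.8% of all genes were above it in each group. The hair follicle set held Hoxa2, Hoxa3, Hoxa5, Hoxa7 and Hoxa9 of HoxA, Hoxb2 to Hoxb6 with Hoxb8 and Hoxb9 of HoxB, Hoxc4, Hoxc8 and Hoxc13 of HoxC, and Hoxd4 and Hoxd8 of HoxD. GFP_High and GFP_Low shared the same 4 members, Hoxa9, Hoxb2, Hoxb3 and Hoxb6, on the probe sets used. A further probe set of Hoxa3 was just above the level in GFP_Low (7.7, 8.3 and 7.2) and not in GFP_High (7.1, 6.0, 7.3 and 6.3). Villus arrays had Hoxa9, Hoxb2, Hoxb3, Hoxb4, Hoxb13 and Hoxd9. In all, 19 members were above the level in at least 1 group and 15 in none. With the 99th percentile (an intensity of 9.97) the counts were 16 in hair follicle, 3 in GFP_High, 2 in GFP_Low and 0 in Villus, so that the Villus members lay close to the level.

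**Figure D1:**
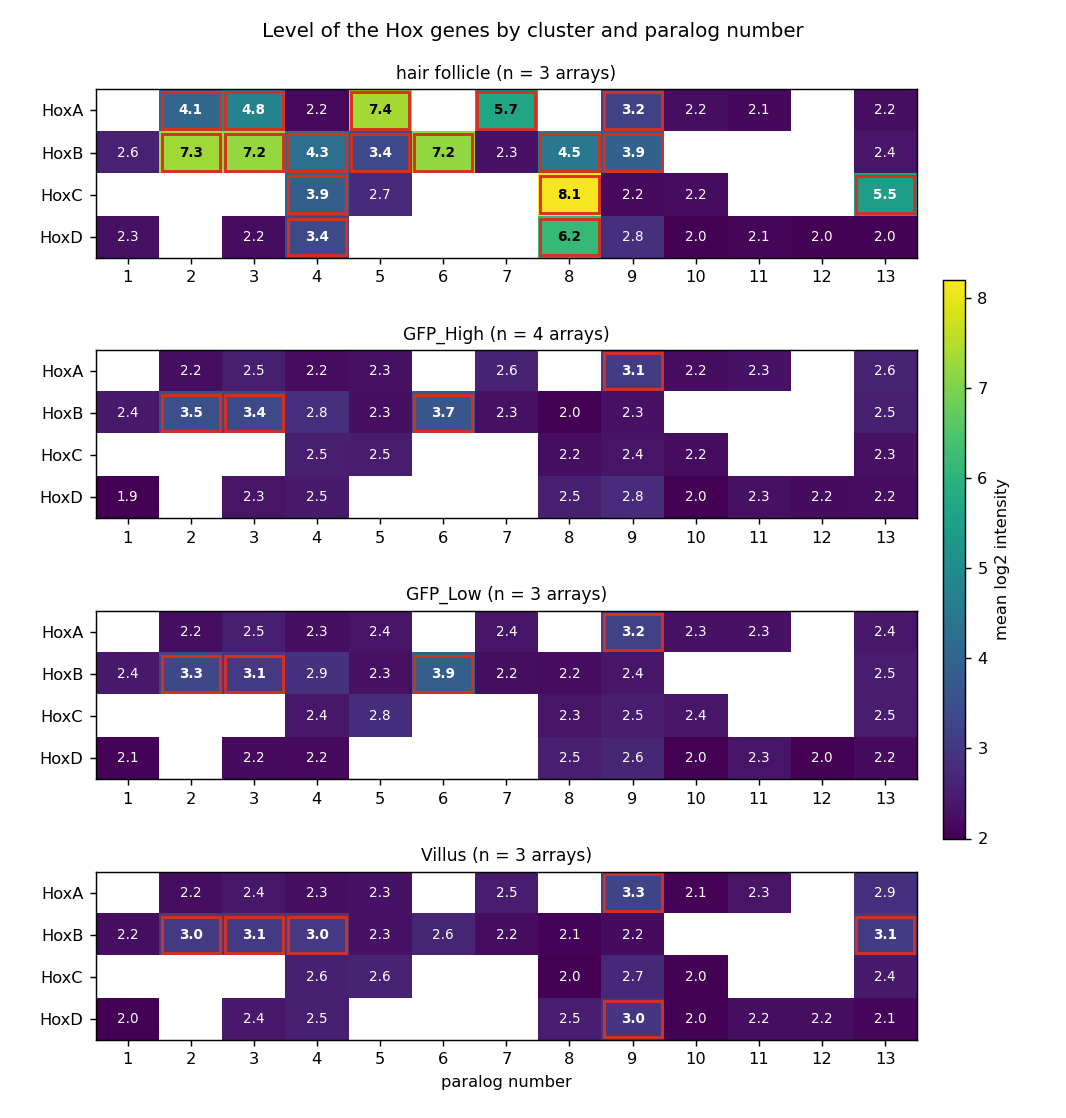
Mean log2 intensity of each Hox gene (number in the cell) in the 3 hair follicle, 4 GFP_High, 3 GFP_Low and 3 Villus arrays, by cluster (rows) and paralog number (columns). Red frames mark means above the receptor level of log2 2.92, white cells hold no value here, and colours of different cells are readings of different probe sets: 17 cells are framed in hair follicle and 4 to 6 in each intestinal group.

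The question of the hair follicle comparison is how 2 Lgr5 stem cell populations of different organs differ. Against GFP_High, 17 of 34 members were higher in hair follicle cells and 0 were lower (limma, Benjamini-Hochberg adjusted p under 0.05 over all genes), where 19.4% of all genes were called higher and 29.1% lower. The median log2 difference was 0.32 over the members and -0.06 over all genes. Of the 17, 16 were above the receptor level in hair follicle arrays and had groups that did not overlap. The share of all genes without overlap was not computed, so that this count only describes the members. The other was Hoxd1, which differed by log2 0.39 (standard error 0.14, adjusted p = 0.0365, limma), below the level in both groups and with overlapping arrays. The same 16 members were higher against GFP_Low (16 higher and 0 lower, where 21.0% and 25.2% of all genes were called higher and lower). Against Villus, the same 16 were higher and 3 others lower, where 26.9% and 27.4% of all genes were. These comparisons share the hair follicle arrays.

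By paralog number, 14 of the 16 members were in groups 1 to 8 and 2 in groups 9 to 13. Of the 7 members of groups 1 to 3, 4 were among them, of the 13 members of groups 4 to 8, 10 were, and of the 14 members of groups 9 to 13, 2 were: Hoxb9, and Hoxc13 at the posterior end of its cluster. The median log2 differences from GFP_High were 1.81, 1.41 and -0.07 in the same order. By cluster, 7 of 10 HoxB members, 4 of 9 HoxA, 3 of 6 HoxC and 2 of 9 HoxD members were among the 16. The blocks of paralog numbers were set with these values known, and the counts are a description.

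**Figure D2:**
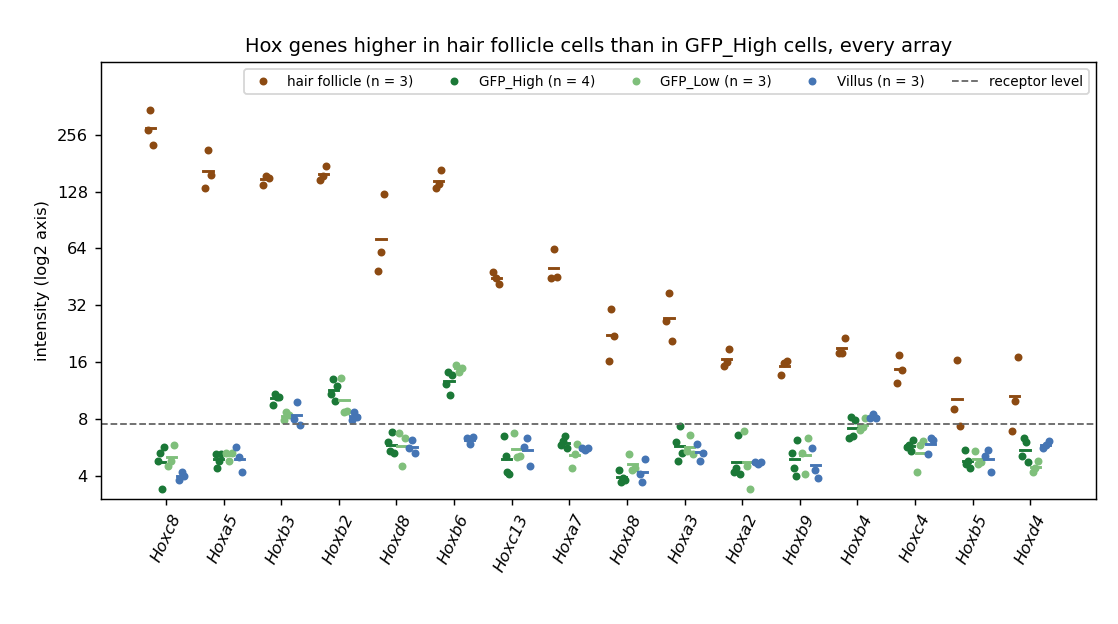
Intensity (log2 axis) of the 16 Hox genes that were higher in hair follicle than in GFP_High cells and above the receptor level (dashed line), ordered by the size of the difference. Each point is 1 array and each bar the mean of the log2 values of a group: the 3 hair follicle arrays lie above all 10 intestinal arrays for every gene.

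Among the anterior members, Hoxa2, which patterns the hindbrain and pharyngeal arches, had intensities of 15.3, 16 and 18.7 in hair follicle arrays, against 4.2, 4.4, 6.6 and 4.1 in GFP_High. All 3 hair follicle arrays were above all intestinal ones, and the difference was at least 2.20-fold (log2 1.81, standard error 0.22, adjusted p = 6.15e-06, limma). Hoxb2, which acts in the hindbrain as well, had 147, 155 and 174 in hair follicle arrays, against 10.8, 13, 9.9 and 11.9 in GFP_High. Here both groups were above the receptor level, so that the fold is a measured one, 14-fold (log2 3.80, standard error 0.15, adjusted p = 5.83e-11, limma).

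Hoxa3, needed for thymus and parathyroid formation, had 26.3, 37.3 and 20.7 in hair follicle arrays, against 6.0, 4.8, 7.3 and 5.3 in GFP_High, which is at least 3.61-fold (log2 2.24, standard error 0.19, adjusted p = 2.37e-07, limma). Hoxb3 had 139, 156 and 152 in hair follicle arrays, against 9.5, 10.8, 10.4 and 10.5 in GFP_High, and this was a measured 14.4-fold difference (log2 3.85, standard error 0.12, adjusted p = 3.35e-12, limma). The hair follicle arrays of Hoxb3 were the closest to each other among the 17 members above the level, with a range of log2 0.17. The third member of this paralog group, Hoxd3, was not above the receptor level in any group (4.2, 4.1 and 5.8 in hair follicle arrays, against 4.7, 5.4, 5.0 and 4.9 in GFP_High).

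In paralog group 4, whose genes shape the neck vertebrae and of which Hoxb4 is known for expanding blood stem cells, 3 of 4 members were higher. Hoxb4 had 17.9, 17.9 and 21.5 in hair follicle arrays, against 6.3, 8.2, 6.5 and 7.9 in GFP_High, at least 2.44-fold (log2 1.41, standard error 0.13, adjusted p = 3.60e-07, limma). Hoxc4 had 12.4, 17.5 and 14.6 in hair follicle arrays, against 5.7, 5.8, 5.4 and 6.2 in GFP_High, at least 1.94-fold (log2 1.35, standard error 0.15, adjusted p = 3.96e-06, limma). Hoxd4 was higher with a wide spread. It had 6.9, 10.0 and 17 in hair follicle arrays, of which the first lies below the receptor level, against 5.1, 6.3, 6.0 and 4.7 in GFP_High, at least 1.40-fold (log2 0.94, standard error 0.23, adjusted p = 0.00292, limma), and by the methods' t-test Hoxd4 was not called against GFP_High, GFP_Low or Villus (Benjamini-Hochberg adjusted p = 0.0776, 0.0823 and 0.148). Hoxa4 had 4.5, 4.5 and 4.4 in hair follicle arrays, against 4.1 to 5.2 in GFP_High, all below the level.

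Hoxa5, a regulator of airway and neck to chest patterning, had 134, 213 and 157 in hair follicle arrays, against 5.2, 4.4, 4.8 and 5.2 in GFP_High. The hair follicle arrays were at least 21.8-fold higher (log2 5.08, standard error 0.16, adjusted p = 4.01e-12, limma), while the intestinal arrays of all groups lay between 4.2 and 5.7. Its paralog Hoxb5, known for a role in the neural crest of the gut, had 9.0, 16.4 and 7.3 in hair follicle arrays, against 5.5, 4.6, 4.8 and 4.4 in GFP_High (at least 1.36-fold, log2 1.09, standard error 0.22, adjusted p = 0.000680, limma). One of its hair follicle arrays was under the receptor level and another above it by a wide margin. Hoxc5 was below the level in all groups.

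The only measured member of paralog group 6, Hoxb6, had 134, 141 and 166 in hair follicle arrays, against 12.3, 14.2, 10.7 and 13.6 in GFP_High, an 11.6-fold difference (log2 3.54, standard error 0.12, adjusted p = 1.31e-11, limma). Of group 7, Hoxa7 had 44.6, 63.6 and 45.1 in hair follicle arrays, against 5.8, 6.1, 6.5 and 5.6 in GFP_High, at least 6.67-fold (log2 3.07, standard error 0.14, adjusted p = 2.87e-10, limma). Hoxb7, which lies between 2 members that were higher, Hoxb6 and Hoxb8, had 5.0, 5.1 and 4.6 in hair follicle arrays and 4.3 to 5.2 in GFP_High, both below the receptor level.

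All 3 members of paralog group 8, genes of the trunk region, were higher in hair follicle cells. Hoxc8 showed the largest difference of any member. It had 271, 347 and 226 in hair follicle arrays, against 4.8, 5.3, 3.4 and 5.7 in GFP_High, at least 36.7-fold (log2 5.88, standard error 0.18, adjusted p = 4.91e-12, limma). Hoxb8, whose loss in mice leads to excessive grooming, had 16.3, 30.5 and 22.0 in hair follicle arrays, against 4.3, 3.7, 3.9 and 3.8 in GFP_High, at least 2.94-fold (log2 2.5, standard error 0.18, adjusted p = 3.44e-08, limma). Hoxd8 had 48.4, 61.0 and 124 in hair follicle arrays, against 6.0, 5.4, 6.8 and 5.3 in GFP_High, at least 9.48-fold (log2 3.61, standard error 0.25, adjusted p = 2.69e-08, limma).

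Of the posterior members, Hoxb9, which takes part in patterning the rib cage, had 13.6, 15.9 and 16.3 in hair follicle arrays, against 5.3, 4.4, 4.0 and 6.2 in GFP_High, at least 2.02-fold (log2 1.63, standard error 0.19, adjusted p = 4.01e-06, limma). Hoxc13, which controls hair keratin genes and without which mice lack a visible coat, had 47.9, 44.4 and 41.3 in hair follicle arrays, against 6.5, 5.1, 4.2 and 4.1 in GFP_High. The difference was at least 5.89-fold (log2 3.18, standard error 0.18, adjusted p = 2.16e-09, limma). No other member of groups 10 to 13 was above the level in hair follicle arrays. Hoxc9 and Hoxc10, which lie between Hoxc8 and Hoxc13, had 4.0 to 4.8 and 4.4 to 4.9 in hair follicle arrays, against 4.3 to 5.8 and 4.3 to 4.8 in GFP_High.

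Hoxa9, a gene of blood stem cells and leukaemia, was above the receptor level in all 4 groups and was not called between any of them. It had 9.2, 10.7 and 8.2 in hair follicle arrays, 9.9, 8.8, 6.1 and 10.0 in GFP_High, 10.2, 10.2 and 7.6 in GFP_Low and 10.5, 9.4 and 8.9 in Villus. The arrays of all groups overlap. Next to Hoxa7 and with no group difference, it marks the point in HoxA beyond which no member was higher in hair follicle arrays: Hoxa10, Hoxa11 and Hoxa13 lay between 3.7 and 5.5 there.

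Promoter windows of 4 of these genes show the sequence around the starts of members that were higher in hair follicle cells from 3 clusters (Hoxa5, Hoxb8 and Hoxd4), and of Hoxa9, which was not. Each runs from 250 bases before to 50 after the gene start in RefSeq (GRCm38.p6), 5′ to 3′ on the strand of the gene. Capitals mark matches, on either strand, to 6 motifs. The CDX-type motif searched was TTTATGG. The motif bound by HOX with PBX was TGATTNAT, and the core bound by many homeodomains was TAATTA. Of general promoter elements, the box of TBP was TATAAA and that of SP1 was GGGCGG. The half-site of retinoid receptors was AGGTCA. No matches overlap in these windows.
Hoxa5, chr6:52204538-52204837, minus strand: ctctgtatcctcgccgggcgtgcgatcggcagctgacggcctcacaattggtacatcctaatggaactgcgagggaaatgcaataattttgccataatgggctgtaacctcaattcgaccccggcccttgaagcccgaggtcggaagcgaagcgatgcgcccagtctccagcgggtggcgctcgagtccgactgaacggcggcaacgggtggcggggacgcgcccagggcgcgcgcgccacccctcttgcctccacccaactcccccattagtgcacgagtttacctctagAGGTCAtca
Hoxb8, chr11:96281655-96281954, plus strand: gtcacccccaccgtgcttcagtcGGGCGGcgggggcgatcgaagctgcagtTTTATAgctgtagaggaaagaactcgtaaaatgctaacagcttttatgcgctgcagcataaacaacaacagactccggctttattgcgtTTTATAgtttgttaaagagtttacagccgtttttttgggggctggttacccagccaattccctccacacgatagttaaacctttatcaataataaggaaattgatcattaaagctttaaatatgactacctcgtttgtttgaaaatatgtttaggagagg
Hoxd4, chr2:74721728-74722027, plus strand: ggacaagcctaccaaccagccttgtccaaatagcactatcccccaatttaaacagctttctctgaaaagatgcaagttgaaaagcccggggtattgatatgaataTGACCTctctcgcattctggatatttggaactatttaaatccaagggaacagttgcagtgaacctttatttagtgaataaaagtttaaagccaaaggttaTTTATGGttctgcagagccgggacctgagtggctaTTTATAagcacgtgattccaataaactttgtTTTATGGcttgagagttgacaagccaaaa
Hoxa9, chr6:52227321-52227620, minus strand: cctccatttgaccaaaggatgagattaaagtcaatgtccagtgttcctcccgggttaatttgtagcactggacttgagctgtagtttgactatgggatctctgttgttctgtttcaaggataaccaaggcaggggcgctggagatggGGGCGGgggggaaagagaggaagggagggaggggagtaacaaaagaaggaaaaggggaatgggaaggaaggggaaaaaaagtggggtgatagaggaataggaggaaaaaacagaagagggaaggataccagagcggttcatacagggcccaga

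A window was at hand for 21 of the 34 members (23 windows, with a pair each for Hoxa10 and Hoxd11), and 13 members had none, Hoxb2, Hoxb3, Hoxb6, Hoxc8 and Hoxc13 among them. Hoxd4 held TTTATGG at 2 places, 45 bases before and 22 after the start, and was the 1 member with this motif, which 2.75% of 32841 windows of all genes hold. TATAAA was in 4 of the 23 windows (Hoxa10, Hoxb8, Hoxd4 and Hoxd13), against 13.6% of all windows, GGGCGG in 9, against 35.7%, and AGGTCA in 7, against 16.3%. TGATTNAT was in 2 (3.22% of all) and TAATTA in 2, both of Hoxd11 (5.29% of all). CG dinucleotides numbered 29 in the window of Hoxa5, 13 in Hoxb8, 4 in Hoxd4 and 4 in Hoxa9, with a median of 14 over the members' windows and 7 over all windows. A match is a string of letters, not a bound site.

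The titles carry a number, called the sort code here, whose meaning is not stated in the sources used here. The hair follicle comparison was also made within the 1 code that joins hair follicle and intestinal arrays. A hair follicle array (2), a GFP_High array (3) and a GFP_Low array (2) carry it. Within it, the differences of the 16 members ran from log2 0.74 (Hoxd4) to 6.67 (Hoxc8) against the GFP_High array, and from 1.18 to 6.18 against the GFP_Low array. Their direction was fixed beforehand, as all hair follicle arrays of these 16 lie above all intestinal ones. The sizes are a description. With the sort code as a fixed replicate block, which leaves out Villus, the hair follicle comparisons rest on the same hair follicle array. The other hair follicle arrays share their codes with no array, so that this fit is no further check. Without the 3 arrays with conflicting labels, 16 were called against GFP_High (Hoxd1 was lost) and 15 against GFP_Low (Hoxb5 was lost), with a single GFP_Low array left, which is assumed to vary like the other groups.

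The 3 hair follicle arrays did not order the members in 1 way. Of the 17 members above the receptor level, 1 was highest in array 1, 9 in array 2 and 7 in array 3, and 12 were lowest in array 1. The range over the arrays had a median of log2 0.50, against 0.46 for all genes above the level in this group, and ran to 1.36. The HoxD members had the widest ranges and were highest in array 3: Hoxd8, above, and Hoxd4. The other probe set of Hoxd8 read 6.5, 18.3 and 41.5 in the same arrays, in the same order. The HoxA members Hoxa3, Hoxa5, Hoxa7 and Hoxa9, and Hoxb3, Hoxb5, Hoxb8, Hoxc4 and Hoxc8, were highest in array 2. Markers of other cells differed between the arrays too. Col3a1, a fibroblast collagen, had 33.3, 17 and 65.9 in arrays 1, 2 and 3, Dcn 34.1, 33.5 and 21.1, and Dct, of melanocytes, 148, 408 and 97.3. Their part in these ranges was not tested.

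**Figure D3:**
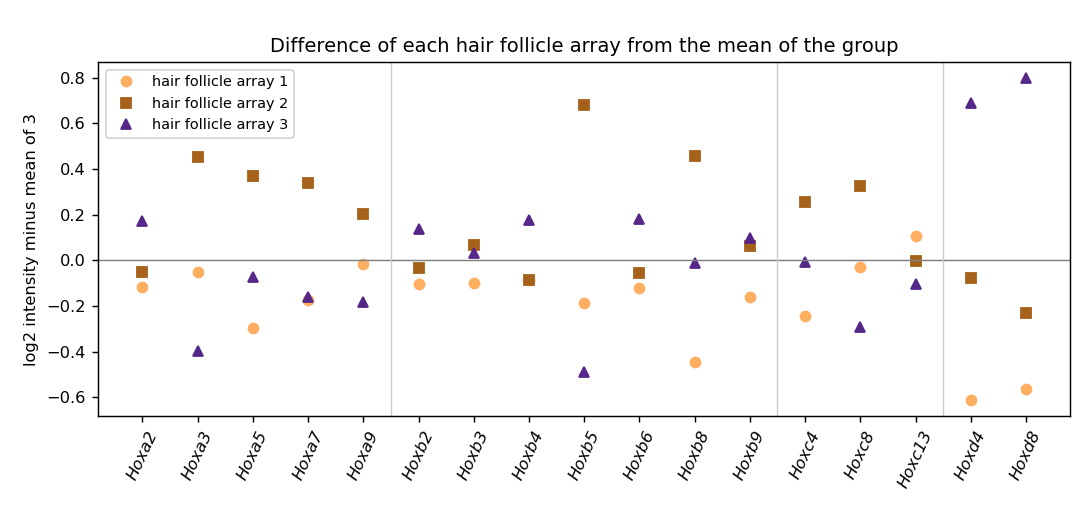
Log2 intensity of each of the 3 hair follicle arrays minus the mean of the 3, for the 17 Hox genes above the receptor level, in the order of the clusters (grey lines part HoxA, HoxB, HoxC and HoxD). Hoxd4 and Hoxd8 stand out with array 3 highest and ranges of log2 1.30 and 1.36, against a median range of 0.50; for Hoxb4, arrays 1 and 2 coincide.

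In 6 genes more than 1 probe set was at hand, and in the hair follicle comparison the others gave smaller differences or none. Hoxb3 had a further one at 16.2, 16.9 and 13.5 in hair follicle arrays and 6.7, 6.9, 6.5 and 6.6 in GFP_High, log2 1.21 more (standard error 0.15, adjusted p = 1.08e-05, limma over every single-gene probe set). The further one of Hoxb4 had 6.6, 10.5 and 6.6 in hair follicle arrays and 6.1, 4.9, 5.8 and 5.2 in GFP_High (log2 0.49, standard error 0.16, adjusted p = 0.0191, limma). Of 3 further probe sets of Hoxa3, 1 was called at log2 0.51 (standard error 0.12, adjusted p = 0.00298, limma) and the others, at 0.24 and 0.06, were not. The size of a difference thus depends on the probe set that is read.

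Between the intestinal groups few members could be compared, since 4 to 6 of 34 were above the receptor level in each. Between GFP_Low and GFP_High, 0 of 34 members were called by limma (2 at an unadjusted p under 0.05, and 1 by the methods' t-test), where 6.32% of all genes were called higher and 10.4% lower. The largest differences were log2 0.31 for Hoxc5, which is below the receptor level in both groups, and -0.31 for Hoxb3. Hoxb3 had 7.9, 8.7 and 8.4 in GFP_Low, against 9.5, 10.8, 10.4 and 10.5 in GFP_High (standard error 0.12, adjusted p = 0.0968, limma). The GFP_Low arrays were all below the GFP_High ones, but the difference did not pass the test over all genes. Within the 3 pairs that share a sort code it was log2 -0.27, -0.26 and -0.32. The direction within the pairs was fixed beforehand, as the groups do not overlap, and the sizes are a description. Hoxb3, on this probe set, is the member that the methods' t-test called. Its further probe set, with both means below the receptor level, had 5.9, 6.9 and 8.3 in GFP_Low, against 6.7, 6.9, 6.5 and 6.6 in GFP_High. That was no fall (log2 0.06, standard error 0.15, adjusted p = 0.882, limma over every single-gene probe set).

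Between Villus and GFP_High, 2 members were higher (Hoxb13 and Hoxc9) and 3 lower (Hoxb2, Hoxb3 and Hoxb6), where 22.6% of all genes were called higher and 26.3% lower. Against GFP_Low, 2 were higher (Hoxa13 and Hoxb13) and 1 lower (Hoxb6), where 20.8% and 21.3% of all genes were. As most members lie at background in these groups, few calls could be had, and these shares are not read against those of all genes. The median difference over the members was log2 0.02 against GFP_High and -0.01 against GFP_Low. Without Villus array 3, 1 member (Hoxb6) was called against GFP_High. Without the arrays with conflicting labels, Hoxb3 and Hoxc9 were lost there, and against the 1 GFP_Low array then left, which is assumed to vary like the other groups, Hoxa13 was lost while Hoxb2 and Hoxc10 were gained.

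Hoxb6 showed the clearest difference within the intestine. It had 6.3, 5.9 and 6.4 in Villus, against 12.3, 14.2, 10.7 and 13.6 in GFP_High and 15.4, 14.1 and 14.9 in GFP_Low. All Villus arrays were below the receptor level and all crypt arrays above it. Hoxb6 was at least 1.67-fold lower in Villus than in GFP_High (log2 -1.03, standard error 0.12, adjusted p = 5.81e-06, limma) and at least 1.96-fold lower than in GFP_Low (log2 -1.26, standard error 0.13, adjusted p = 2.61e-06, limma). Between GFP_Low and GFP_High it was not called, with log2 differences of 0.32, 0.40 and 0.13 within the 3 pairs that share a sort code.

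Hoxb2 had 7.9, 8.7 and 8.2 in Villus, against 10.8, 13, 9.9 and 11.9 in GFP_High (log2 -0.46, standard error 0.15, adjusted p = 0.0226, limma). The groups did not overlap, but the call was lost in 6 of the alternatives, among them without GFP_High array 2 (log2 -0.39) or 4 (log2 -0.43) and without Villus array 1 (log2 -0.43) or 3 (log2 -0.45). Hoxb3 had 8.0, 9.8 and 7.4 in Villus, overlapping with GFP_High (log2 -0.30, standard error 0.12, adjusted p = 0.0455, limma). This call was lost in 18 of 26 alternatives, among them 9 of 13 that leave out 1 array. The further probe set of Hoxb3 differed in the other direction, with 7.3, 8.3 and 10.6 in Villus, against 6.7, 6.9, 6.5 and 6.6 in GFP_High (log2 0.37, standard error 0.15, adjusted p = 0.0597, limma), so that the direction for Hoxb3 in Villus is not settled.

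In the other direction, Hoxb13, a posterior gene of the tail and prostate, had 7.4, 7.8 and 10.5 in Villus, against 6.2, 5.9, 5.3 and 6.0 in GFP_High and 4.6, 5.7 and 6.7 in GFP_Low. Its Villus arrays were above all others, and the difference from either group was at least 1.12-fold (log2 0.54, standard error 0.15, adjusted p = 0.00925 against GFP_High, and log2 0.60, standard error 0.16, adjusted p = 0.00867 against GFP_Low, limma). Without Villus array 3 the difference from GFP_High was log2 0.38 and no longer passed (adjusted p = 0.0604, limma). Hoxa13, which acts in the limb, hindgut and genital tract, had 7.8, 5.8 and 8.5 in Villus, against 5.3, 5.5 and 5.1 in GFP_Low (log2 0.46, standard error 0.16, adjusted p = 0.0330, limma), with both means below the receptor level. This call was lost in 10 of 26 alternatives, among them without any 1 of the GFP_Low arrays and without Villus array 1 or 3. A further probe set of Hoxd13, also below it, had 5.0, 5.2 and 6.4 in Villus, against 4.0, 3.8, 4.4 and 3.9 in GFP_High (log2 0.45, standard error 0.12, adjusted p = 0.00703, limma), while the one used for the gene was not called.

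Hoxc9 had 6.2, 6.1 and 7.3 in Villus, against 5.5, 5.0, 5.8 and 4.3 in GFP_High, again below the level in both (log2 0.35, standard error 0.13, adjusted p = 0.0433, limma), a call lost in 13 of 26 alternatives. The 3 members lower in hair follicle cells than in Villus were the same ones, Hoxa13 (log2 -0.61), Hoxb13 (log2 -0.70) and Hoxc9 (log2 -0.54). Leukocyte markers stood apart in Villus: Ptprc had 188, 167 and 113 in Villus arrays 1, 2 and 3, against 3.7 to 4.6 in GFP_High, and smooth muscle Myh11 had 32.4, 55.2 and 4.0, against 3.7 to 8.9. Hoxb13 and Hoxc9 were highest in array 3. Ptprc and Myh11 were lowest in array 3, as were most genes of the leukocyte list, such as Gzma (1130, 1104 and 822) and Cd8a (77.9, 62.5 and 22.5). Tyrobp was lowest in array 2 (68.8, 56.3 and 57.2). Lyz2, also on the list, was highest in array 3 (194, 220.5 and 482). It was higher still in the crypt arrays, with 2138 to 4503 in GFP_High and 7589 to 12665 in GFP_Low. The part of leukocytes and muscle cells in the Villus differences was not tested. Hoxb4 and Hoxd9, above the receptor level in Villus, were not called against GFP_High or GFP_Low.

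**Figure D4:**
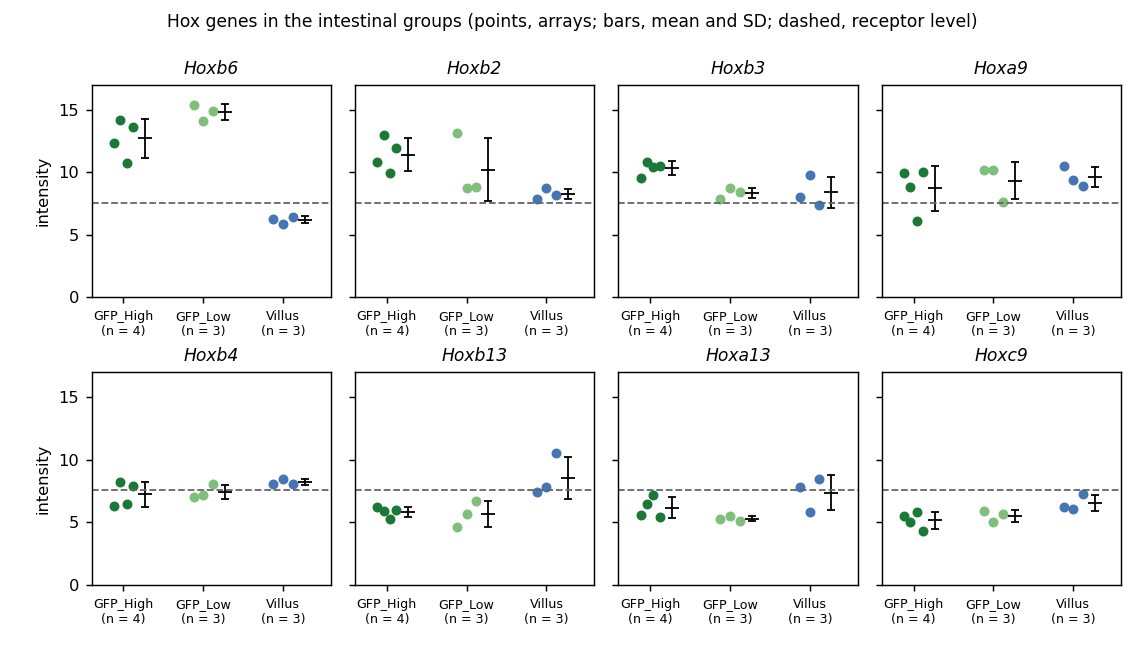
Intensity of 8 Hox genes in the 4 GFP_High, 3 GFP_Low and 3 Villus arrays (points), with the mean and SD of each group beside them and the receptor level of 7.55 as a dashed line. Hoxb6 lies above the line in all GFP_High and GFP_Low arrays and below it in Villus, and Hoxb13 is highest in Villus.

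The 15 members above the level in no group were Hoxa4, Hoxa10, Hoxa11, Hoxa13, Hoxb1, Hoxb7, Hoxc5, Hoxc9, Hoxc10, Hoxd1, Hoxd3, Hoxd10, Hoxd11, Hoxd12 and Hoxd13. Their array values ran from 3.2 (Hoxd1 in a Villus array) to 8.5 (Hoxa13 in a Villus array). They take in 6 of the 9 HoxD members, and neither HoxC nor HoxD had a member above the level in GFP_High or GFP_Low. A probe set that does not work cannot be told apart from a gene that is not expressed.

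Noncoding RNAs of the clusters were read from a list of cluster RNAs and neighbouring genes, 15 of 22 measured. Hoxb5os, an RNA from the strand opposite to Hoxb5 that RefSeq places between Hoxb7 and Hoxb6, had 202, 199 and 169 in hair follicle arrays, against 6.9, 6.1, 6.0 and 4.7 in GFP_High. It was at least 25.1-fold higher (log2 5.01, standard error 0.17, adjusted p = 8.66e-12, limma), with all intestinal arrays at or below 7.8. Hoxaas2, from the strand opposite to HoxA genes, had 4.4, 10.9 and 9.3 in hair follicle arrays, against 4.0, 3.5, 4.8 and 4.7 in GFP_High, and these overlap. Its call (log2 0.86, standard error 0.24, adjusted p = 0.00846, limma) rests on 2 of 3 arrays. Over the list, 4 genes were higher and 4 lower in hair follicle cells than in GFP_High, close to the 19.4% and 29.1% of all genes. The other called ones flank the clusters: Skap2 (log2 0.70, HoxA) and Lnpk (log2 0.70, HoxD) were higher, and Hibadh (log2 -0.87, HoxA), Mtx2 (log2 -1.08, HoxD), Smug1 (log2 -1.97) and Cbx5 (log2 -3.18, both HoxC) were lower.

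HOX proteins bind DNA together with TALE homeodomain partners of the PBX, MEIS and PKNOX families. Of 8 measured, 3 were higher in hair follicle cells than in GFP_High and 0 were lower, where 19.4% and 29.1% of all genes were. Meis1 had 41.3, 27.6 and 18.8 in hair follicle arrays, against 4.3, 4.0, 4.2 and 3.9 in GFP_High, at least 3.68-fold (log2 2.76, standard error 0.20, adjusted p = 4.39e-08, limma). Pbx3 averaged 114 ± 22.7 in hair follicle cells (SD, n = 3) and 40.5 ± 4.22 in GFP_High (SD, n = 4), and Pknox2 was higher by log2 1.25. Meis2 went the other way. It averaged 29.1 ± 11.1 in Villus (SD, n = 3) and 9.43 ± 1.32 in GFP_High (SD, n = 4), with 16.3, 34.9 and 36.0 in the Villus arrays (log2 1.55, standard error 0.24, adjusted p = 6.25e-05, limma), and was lower in hair follicle cells than in GFP_Low (log2 -1.06) and Villus (log2 -2.06). In Villus, Pbx3 was lower than in GFP_High by a log2 difference of -1.76.

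Upstream of the Hox genes stand the caudal factors CDX1, CDX2 and CDX4 and retinoic acid, which induces anterior Hox genes. Of 12 such genes measured, 3 were higher and 4 lower in hair follicle cells than in GFP_High, where 19.4% and 29.1% of all genes were, so that the count does not set the list apart. Cdx2, which sets intestinal identity, had 9.2, 8.0 and 9.1 in hair follicle arrays, against 458, 430, 555 and 510 in GFP_High (log2 -5.79, standard error 0.20, adjusted p = 9.30e-12, limma). Cdx1 averaged 5.63 ± 1.06 in hair follicle cells and 212 ± 24.3 in GFP_High (SD, n = 3 and 4), at least 27.9-fold lower. The retinoic acid receptor gene Rarg averaged 46.1 ± 5.01 in hair follicle cells and 7.15 ± 0.772 in GFP_High, at least 6.01-fold higher, and Cyp26b1, which breaks retinoic acid down, had 92.4, 68.2 and 41.6 in hair follicle arrays, against 5.8 to 8.0 in GFP_High, at least 8.35-fold higher.

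Along the crypt to villus axis, 4 of these 12 were higher and 3 lower in Villus than in GFP_High, where 22.6% and 26.3% of all genes were. Aldh1a1, an enzyme that makes retinoic acid, averaged 46.6 ± 15.7 in GFP_High (SD, n = 4), 346 ± 106 in GFP_Low (SD, n = 3) and 2675 ± 384 in Villus (SD, n = 3), with log2 differences of 5.89 between Villus and GFP_High (adjusted p = 2.11e-10, limma) and 2.90 between GFP_Low and GFP_High (adjusted p = 3.52e-06, limma). Cdx1 averaged 76.8 ± 6.85 in Villus and was lower than in GFP_High (log2 -1.46, adjusted p = 3.60e-06, limma). Cdx2 was not called there (log2 -0.26, adjusted p = 0.317, limma).

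**Figure D5:**
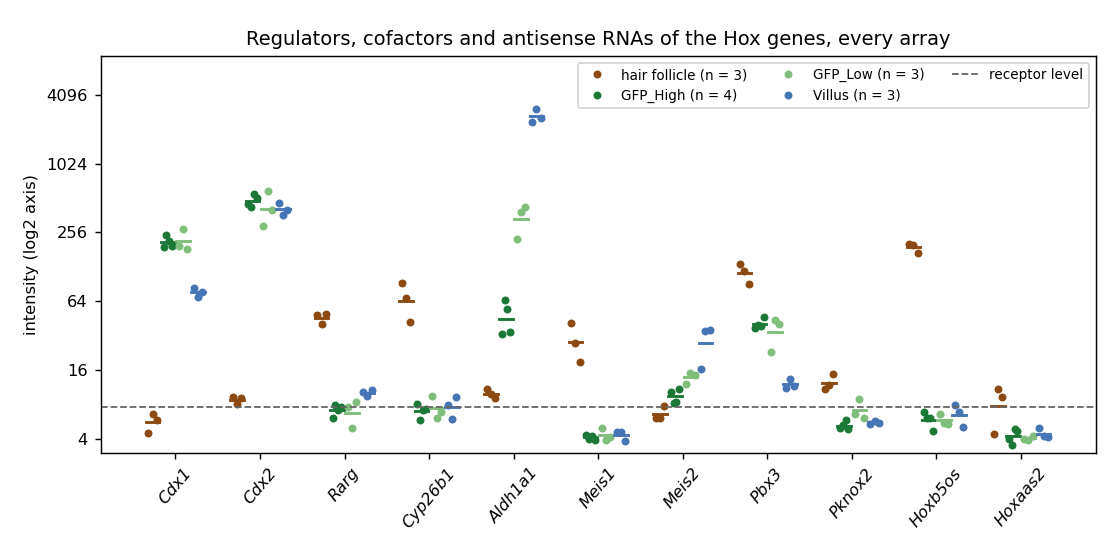
Intensity (log2 axis) of regulators and cofactors of the Hox genes and of 2 antisense RNAs of the clusters, in the 3 hair follicle, 4 GFP_High, 3 GFP_Low and 3 Villus arrays. Points are arrays, bars the means of the log2 values and the dashed line the receptor level: Cdx1 and Cdx2 lie high in the intestinal groups, Meis1 and Hoxb5os in hair follicle cells, and Aldh1a1 is highest in Villus.

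Polycomb complexes hold silent Hox genes in a repressed state and Trithorax group proteins keep active ones open. Of 19 Polycomb genes measured, 3 were higher and 6 lower in hair follicle cells than in GFP_High, near the 19.4% and 29.1% of all genes, with Phf1 (log2 2.90) and Rnf2 (log2 1.28) the largest upward and Ezh2 (log2 -1.03) and Phc1 (log2 -0.98) the largest downward. Between Villus and GFP_High, 2 were higher and 14 lower, where 22.6% and 26.3% of all genes were. Cbx6 averaged 10.6 ± 1.49 in Villus (SD, n = 3) and 161 ± 21.6 in GFP_High (SD, n = 4; log2 -3.92, adjusted p = 2.14e-10, limma), and Ezh2, the methyltransferase of H3K27, averaged 64.5 ± 9.14 in Villus and 338 ± 36.7 in GFP_High (log2 -2.39, adjusted p = 1.03e-07, limma). Rbbp7 and Rbbp4 were lower by log2 differences of -3.03 and -2.25. Phf1 (log2 3.05) and Ezh1 (log2 1.09), a paralog of Ezh2, were the 2 that were higher.

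Between GFP_Low and GFP_High, 11 Polycomb genes were lower and 0 higher, where 10.4% and 6.32% of all genes were, with Cbx6 (log2 -1.67) the largest. Under the other scalings, the Villus count was 13 or 14 lower and 3 or 4 higher, and the GFP_Low count 9 or 10 lower. Of 8 Trithorax and H3K27 demethylase genes, 5 were lower and 0 higher in Villus than in GFP_High (Psip1 by a log2 difference of -2.40, Wdr5 by -1.96), where 26.3% and 22.6% of all genes were. In hair follicle cells 1 was higher (Kdm6a, log2 0.93) and 4 lower than in GFP_High, or 2 and 2 after quantile normalization. As deposited, 19.4% of all genes were called higher there and 29.1% lower.

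Among 22 homeobox genes outside the clusters, 9 were higher and 4 lower in hair follicle cells than in GFP_High, where 19.4% and 29.1% of all genes were. Lhx2, a regulator of hair follicle stem cells, had 1028, 1212 and 1237 in hair follicle arrays, against 3.7 to 4.5 in GFP_High, at least 153-fold higher (log2 8.11, adjusted p = 4.29e-15, limma). Irx5 was at least 115-fold higher and Irx3 was higher by log2 7.06, while Onecut2 was at least 22.4-fold lower. In Villus, 4 were higher and 3 lower than in GFP_High, where 22.6% and 26.3% of all genes were. The counts were 10 and 1 with each array centred on its median, which moves the median of all genes in this comparison to log2 0.30, against 0.02 as deposited. Prrx1, known mainly from mesenchyme, had 169, 136 and 161 in Villus, against 4.3, 4.1, 4.3 and 4.5 in GFP_High, at least 20.5-fold higher (log2 5.17, adjusted p = 2.63e-12, limma), and Pdx1, of the duodenum and pancreas, was higher by log2 2.40. Barx2 (log2 3.38) was higher too, and Pitx1, of the hindlimb, was at least 6.29-fold lower. In Villus, 4 of the 12 fibroblast markers were above the receptor level (summed intensity 73.0 to 113, against 60.0 to 69.2 in GFP_High), with Dcn at 17.7, 24.7 and 7.0 and Col1a1, Col1a2, Pdgfra and Twist1 not above it, and their part in the Prrx1 difference was not tested.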

How the data were processed

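RNA of 13 samples was hybridised, 1 array each, to the HT MG-430 PM platform of Affymetrix. The deposited values are linear intensities that the authors made with Affymetrix Power Tools (RMA; version not given in the sources used here). Their log2 was used. Of 45141 probe sets, 28898 name 1 gene, 551 several and 15692 are not in the table of names used here (28689 gene IDs were found in RefSeq, and 0 symbols changed); a gene was read from its single-gene probe set with the highest mean, which gave 17097 genes. Groups came from the titles.

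Group means were fitted to all 13 arrays with limma 3.58.1 in R 4.3.3 (lmFit, eBayes) for 6 comparisons, with Benjamini-Hochberg adjustment over all genes and a threshold of 0.05. Depth has no counterpart on arrays, and the number of arrays limits the precision; array medians were 7.8 to 8.7, and replicates correlated at 0.978 to 0.994. Python 3.11.15 and matplotlib 3.10.9 drew the plots and read the sequences. On simulated data with 200 of 17097 genes changed in each comparison, the fit recovered 68% to 83% of genes changed by log2 1 and 96% to 99% of those changed by log2 2, with 2.17% to 7.41% of calls false.

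The meaning of the number in the titles, called the sort code here, is not stated in the sources used here. GFP_Low and GFP_High arrays share it in 3 pairs. Deviations from the group means correlated at 0.291, 0.451 and 0.320 within them. Arrays of different codes were not compared in this way, so these values do not show that the code pairs arrays. The code was tried as a block, with a consensus correlation of 0.148 as a random block. Hair follicle array 2 carries the code of 1 pair and correlated with its arrays at 0.103 and 0.0131.

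The members and lists were chosen with earlier results of these data known. Values in every array are given for members that were above the receptor level, called and without overlap in at least 1 comparison, and for others where a result turns on them; of each list, the called genes with the largest differences are named. Alternatives were the log2 offset, 2 normalizations, a filter on low values, the probe set of a gene, limma's trend and array weights, the block, the methods' t-test, the groups fitted, the arrays with conflicting labels and each array left out.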

Additional observations from a re-analysis of the deposited data

Results flagged for a closer look

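In the 4 GFP_High arrays, the single group large enough for the test, 2 of 34 members had an array far from the others by Dixon's test at its 95% critical value. Chance flags about 1 in 20 groups. Hoxa2 had its highest array, GFP_High 3, at 6.6, with the other 3 at 4.1 to 4.4. Hoxd13 had its lowest array, GFP_High 3, at 3.9, with the others at 4.9 to 5.0. Both genes were below the receptor level in GFP_High.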

How the results depend on the processing

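The 54 differences with values in every array were recomputed under each alternative, which gave 1436 values in all. Of these, 1413 kept the direction and the side of the threshold, 23 fell short of the threshold and 0 changed direction. Those that fell short were of Hoxb2 (Villus against GFP_High), Hoxb13, Hoxb5 and Hoxd4. Of members called, Villus against GFP_High (5) gave 2 with 16 added before log2, 8 with median centring, 3 with the filter on the receptor level, 3 without the arrays with conflicting labels, 3 with only the 2 groups fitted, and 3 by the methods' t-test after Benjamini-Hochberg or 2 at its unadjusted threshold. Villus against GFP_Low (3) gave 5 with median centring and 5 with array weights. GFP_Low against GFP_High (0) gave 1 by the methods' t-test after Benjamini-Hochberg and 1 unadjusted, both Hoxb3. For hair follicle, the methods' t-test gave 15 after Benjamini-Hochberg and 14 unadjusted against GFP_High (17 by limma), 14 and 14 against GFP_Low (16), and 16 and 14 against Villus (19), with Hoxd4 lost in all and Hoxb5 in all but the adjusted one against GFP_High. The cause was not tested. Leaving out 1 array gave 0 to 0 calls for GFP_Low against GFP_High, 1 to 5 for Villus against GFP_High (1, Hoxb6, without Villus array 3), 2 to 3 for Villus against GFP_Low, and for hair follicle 16 to 18 against GFP_High, 16 to 16 against GFP_Low and 19 to 22 against Villus. With the 99th percentile as receptor level, 2 members were above it in GFP_Low (4 at the 95th) and 0 in Villus (6).

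With the sort code as a fixed replicate block, which leaves out Villus, 0 members were called between GFP_Low and GFP_High, 16 between hair follicle and GFP_High and 16 between hair follicle and GFP_Low. As a random block the counts were 0, 18 and 16, and 5, 3 and 19 for Villus against GFP_High, Villus against GFP_Low and hair follicle against Villus. Median centring moved the median of all genes to log2 0.30 for Villus against GFP_High, 0.20 for Villus against GFP_Low and -0.24 for hair follicle against Villus (0.02, 0.02 and -0.04 as deposited), and the calls over all genes to 7061 higher and 3648 lower (3868 and 4493 as deposited), 4984 and 3014 (3558 and 3644) and 3924 and 6249 (4607 and 4685). Values near the receptor level have no reliable order.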
